A study of Mus musculus with 20 samples.

Results

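Regulatory T (Treg) cells lacking Tet2 and Tet3 were compared with the Foxp3-negative CD4+ T cells of the same genotype, both taken from mesenteric lymph nodes (mLN). The members are the 3 RNA-seq libraries of DKO CD4+YFP+ Treg cells and the 3 libraries of DKO CD4+YFP- cells from mLN, 6 of the 20 samples of the series, chosen by their labels. DKO denotes Tet2/3 fl/fl Foxp3Cre mice, in which a YFP-Cre fusion knocked into the Foxp3 gene deletes the floxed Tet2 and Tet3 alleles in cells that express Foxp3. All mice were on the C57BL/6 background and 14 weeks old. The other sets used for reference were the 6 mLN libraries of Foxp3Cre WT mice (the same Cre and no floxed allele) and the 4 DKO libraries from pooled spleen and peripheral lymph nodes (pLN). The question was which genes still separate Treg cells from CD4+Foxp3- T cells when the Treg cells lack both enzymes. Because Cre acts where Foxp3 is or was expressed, the DKO CD4+Foxp3- group can mix cells that keep both genes with cells that once expressed Foxp3 and deleted them, in shares that counts per gene do not show. By PCR and by reads on the deleted exons, the study found both mRNAs much lower in DKO than WT CD4+YFP- cells. It proposes that many of the activated CD4+YFP- cells were former Treg cells. Elsewhere it describes the deletion as specific to CD4+YFP+ cells.

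Treg cells are CD4+ T cells that restrain immune responses, and Foxp3 is the transcription factor that defines them. Many of the genes that mark them encode surface receptors for IL-2, TNF-family ligands and inhibitory ligands, while genes of naive T cells, such as Tcf7 and Lef1, run at lower levels in them. TET enzymes oxidize 5-methylcytosine in CpG dinucleotides as a step in DNA demethylation, and demethylated enhancers in the Foxp3 locus are known to keep Foxp3 stable.

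Each mLN library held between 9998478 and 15449158 counted reads, and the 6 DKO libraries held between 11127950 and 14423370. Values are given as CPM, the counts of a gene scaled to a common library total with TMM factors, and a count of 3 reads, taken as the detection floor, corresponded to 0.211 to 0.266 CPM in the DKO libraries. A gene is called here when edgeR's quasi-likelihood test gave a Benjamini-Hochberg adjusted p below 0.05 and at least a 1.5-fold difference. Log2 fold changes are Treg over CD4+Foxp3- and carry the SE of the fit, whereas means of groups carry the SD over libraries. Tet2 read 11.4, 7.69 and 12.8 CPM in DKO Treg replicates 1, 2 and 3, against 8.43, 8.44 and 12 CPM in the DKO CD4+Foxp3- replicates, and the groups overlapped (log2 0.14 ± 0.20, adjusted p = 0.68). Tet3 read 68.5, 48.4 and 73.3 CPM in DKO Treg and 111, 69.7 and 136 CPM in DKO CD4+Foxp3- cells, a log2 difference of -0.74 ± 0.21 (adjusted p = 0.029, and 0.12 with the DKO libraries alone), although the highest Treg library stood above the lowest CD4+Foxp3- library. Gene counts include the exons that Cre leaves in place, so neither value checks the deletion. Foxp3, the gene of the sort reporter, read 277, 308 and 329 CPM in DKO Treg and 2.75, 0.211 and 1.33 CPM in DKO CD4+Foxp3- cells. All 6 libraries thus matched their labels, and this separation checks the sort and is no finding.

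The 3 DKO CD4+Foxp3- libraries were spread out along the first principal component of the 500 most variable genes, which carried 57.5% of the variance. Replicates 1, 2 and 3 lay at -13.8, 24.0 and 6.72, while DKO Treg libraries lay between 44.6 and 50.6, so replicate 2 was nearest to them. Distances within the group over these genes were 57.2 (replicates 1 and 2), 44.4 (2 and 3) and 37.4 (1 and 3). Plasma cell RNA also varied by replicate number, with Jchain, the joining chain of secreted IgA and IgM, at 2.14, 412 and 8.89 CPM in DKO Treg and 10.6, 474 and 46.8 CPM in DKO CD4+Foxp3- cells, the highest value of each group being replicate 2. The 5 plasma cell markers summed to 4.66 to 478 CPM in DKO Treg and 13.5 to 547 CPM in DKO CD4+Foxp3- cells, and none was called by edgeR or by DESeq2 in the fit of the 4 groups (0 of 5 at an unadjusted p below 0.05). With replicate number as a block Jchain was called lower in Treg cells (adjusted p = 0.04), and without CD4+Foxp3- replicate 2 Derl3, a gene of secretory cells, was called higher (log2 2.21). The 11 B cell markers summed to 42.5 to 107 CPM in Treg and 10.4 to 22.4 CPM in CD4+Foxp3- libraries, and Blk was the 1 called. Of the defining B cell genes, Ms4a1 reached 0.503 CPM at most, Pax5 read 2.29, 0.216 and 1.93 against 0.177, 1.27 and 0.177 CPM and Ebf1 0.764, 2.8 and 3.27 against 0.355, 1.34 and 0.619 CPM, with overlapping groups. When CD4+Foxp3- replicate 2 was left out, Pax5, Ebf1 and Cd79b were called higher as well. Cr2 had 10 reads in DKO Treg libraries and none in DKO CD4+Foxp3- libraries (at least 3.46-fold higher at a floor of 3 counts over the group). The 16 myeloid markers summed to 98.6 to 131 CPM in Treg and 57.9 to 116 CPM in CD4+Foxp3- libraries. Of these Cd68, a lysosomal protein of macrophages, was called higher (log2 1.93 ± 0.35, adjusted p = 0.002), and without CD4+Foxp3- replicate 2 Cst3 was called higher as well. The 5 NK cell markers summed to 72.6 to 156 CPM and 31.3 to 136 CPM, and Cd8a with Cd8b1 to 2.95 to 3.94 CPM and 5.0 to 10.1 CPM, with Cd8b1 called lower (log2 -1.22 ± 0.23, adjusted p = 0.003). The 8 stroma and endothelium markers summed to 131 to 141 CPM in Treg and 185 to 274 CPM in CD4+Foxp3- libraries, most of it from Pecam1, which T cells also express and which was called lower (log2 -0.84 ± 0.14, adjusted p = 0.0013), and Dcn (decorin) read 0, 24.1 and 0.168 against 0.0887, 6.54 and 0.619 CPM, highest in replicate 2 of both groups. In such bulk samples, fewer cells of a type and less RNA per cell cannot be told apart.

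Of 16784 genes tested, 1885 were called between DKO Treg and DKO CD4+Foxp3- cells, or 11.2% of those tested. DKO Treg cells had more RNA of 1300 of them (7.75%) and less of 585 (3.49%). The called differences were larger on the higher side, with a median log2 fold change of 1.65 against -0.95 on the lower side, and 465 genes exceeded a log2 of 2 while 115 fell below -2. The median over all genes tested was 0.01. Genes with no read in any DKO CD4+Foxp3- library made up 43 of the 1300, and their fitted fold changes depend on the prior count; without them the median was 1.62. In 2539 genes (15.1%) all 3 Treg libraries lay above all 3 CD4+Foxp3- libraries, and in 2067 (12.3%) they lay below. Leaving the WT libraries out of the fit gave 906 calls with edgeR and 1502 with DESeq2, and values given below for the DKO libraries alone are edgeR's unless DESeq2 is named. Leaving out DKO CD4+Foxp3- replicate 2 gave 2934 calls, 1878 higher (11.2%) and 1056 lower (6.32%). Omitting replicate 1 or 3 of that group instead gave 1596 and 1574 calls.

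**Figure D1:**
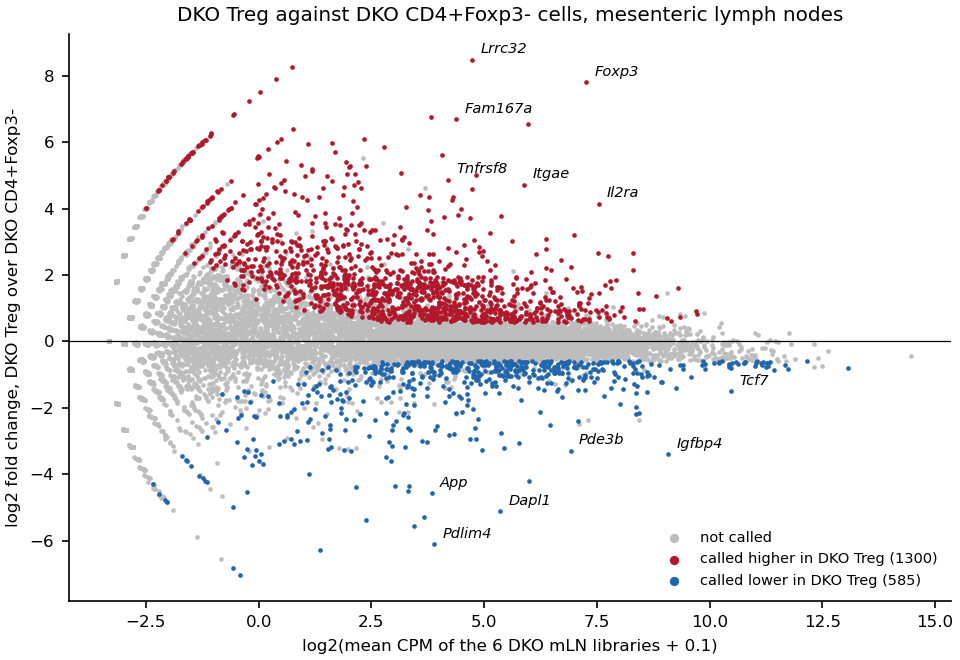
Log2 fold change of DKO Treg over DKO CD4+Foxp3- cells (y axis) against the log2 of the mean CPM plus 0.1 of the 6 libraries (x axis), 1 point a gene, with the 1300 genes called higher in red and the 585 called lower in blue. Foxp3 and Lrrc32 lie at the top of the plot and Pdlim4 at the bottom.

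Among genes of at least 10 CPM whose groups did not overlap, the largest gain in DKO Treg cells was that of a surface protein. Lrrc32 (GARP, which holds latent TGF-beta on the Treg surface) read 43.2, 34.9 and 79.8 CPM in DKO Treg and 0.0887, 0.0704 and 0.265 CPM in DKO CD4+Foxp3- cells (log2 8.49 ± 0.51, adjusted p = 7.1e-07). None of the CD4+Foxp3- libraries exceeded the floor of 3 reads. The gene is at chromosome 7, bases 105642732 to 105650341 of the mm9 build. Foxp3 (chromosome X, 7156802 to 7172369), on which the cells were sorted, had a log2 fold change of 7.80 ± 0.36 (adjusted p = 2.3e-07). Itgae, the CD103 integrin chain that binds E-cadherin on epithelium, read 106, 98.5 and 137 CPM against 9.58, 0.352 and 3.45 CPM (log2 4.72 ± 0.52, adjusted p = 8.1e-05). Its Treg values lay within a narrow range, and its CD4+Foxp3- values spread from the floor to nearly 10 CPM.

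Tnfrsf8 (CD30, a TNF receptor of activated lymphocytes) read 49.95, 36.5 and 18.6 CPM in DKO Treg and 2.04, 0.563 and 1.06 CPM in DKO CD4+Foxp3- cells (log2 4.87 ± 0.43, adjusted p = 1.9e-05). Ccr3, the eotaxin receptor, read 2.67, 18.8 and 8.64 CPM against 0, 0.141 and 0.619 CPM (log2 5.29 ± 0.80, adjusted p = 6.1e-04), with the lowest Treg library well under the others. Spon1, which encodes the secreted matrix protein F-spondin, read 59.7, 51 and 53.2 CPM in DKO Treg and 0.266, 3.1 and 1.5 CPM in DKO CD4+Foxp3- cells (log2 5.01 ± 0.46, adjusted p = 5.3e-05). The 3 Treg values lay close together and far above the other group. In WT Treg libraries no Spon1 read was counted against 2126 in the DKO Treg libraries, so its level was at least 679-fold higher in DKO Treg cells when 3 counts over the group are taken as the floor, a comparison of the Treg groups alone.

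Cobl, an actin nucleator, read 48.5, 24.6 and 10.7 CPM in DKO Treg and 0.532, 0.141 and 0.0884 CPM in DKO CD4+Foxp3- cells (log2 6.77 ± 0.67). Fam167a, of no well-defined role, read 59.96, 23.7 and 39.3 CPM against 0.532, 0.211 and 0.442 CPM (log2 6.70 ± 0.41). Atp6v0d2, a subunit of the vacuolar proton pump, read 58.3, 56.2 and 37.1 CPM against 2.84, 1.83 and 1.59 CPM (log2 4.60 ± 0.25). In each of the 3 genes every Treg library lay at least several-fold above every CD4+Foxp3- library, and their adjusted p-values were 9.0e-05, 7.9e-07 and 3.0e-07. Blk, a Src-family kinase of B cells and gamma-delta T cells, read 26.6, 7.04 and 64.7 CPM against 0.887, 0.211 and 0.972 CPM (log2 5.60 ± 0.74, adjusted p = 2.6e-04). The B cell marker sum was also higher in Treg libraries, but it includes Blk and so is no separate measure of B cells here. Ms4a1, Pax5 and Ebf1 stood at the levels above. The part of B cells in the Blk difference was not tested beyond these values.

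The remaining genes of the 15 with the largest gains varied more between replicates. Hapln1, a link protein of hyaluronan matrix, read 54.8, 311 and 3.78 CPM in DKO Treg and 0.444, 3.17 and 0 CPM in DKO CD4+Foxp3- cells, so that Treg replicate 2, also the highest in Dcn, carried most of the mean (log2 6.54 ± 1.27, adjusted p = 0.0034). Ecel1, an endopeptidase-like gene known from neurons, read 47.6, 2.37 and 1.43 CPM against 0.887, 0 and 0.707 CPM, with replicate 1 far above the other Treg libraries (log2 5.06 ± 1.24, adjusted p = 0.012). Bcar1, the adaptor p130Cas of integrin signaling, read 26.2, 7.91 and 5.7 CPM against 0.0887, 0 and 0.619 CPM (log2 5.84 ± 0.97, adjusted p = 0.0018). With the DKO libraries alone in the fit, the adjusted p of Hapln1 was 0.06 and that of Ecel1 0.11. Tdpoz4 and Gm4858 reached log2 4.42 and 4.34, and as members of a family of near-identical genes their separate values are uncertain.

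On the lower side, the largest differences were in genes whose level in DKO CD4+Foxp3- cells was lowest in replicate 2. Pdlim4, a cytoskeletal PDZ and LIM domain protein encoded at chromosome 11, 53868430 to 53882516 (mm9), read 0.840, 0.216 and 0.168 CPM in DKO Treg and 45.1, 11 and 31.5 CPM in DKO CD4+Foxp3- cells (log2 -6.11 ± 0.56, adjusted p = 2.4e-05). Dapl1, of naive T cells, read 2.98, 0.934 and 3.02 CPM against 137, 17.9 and 82.6 CPM (log2 -5.11 ± 0.63, adjusted p = 1.6e-04). Igfbp4, a secreted IGF-binding protein, was by far the most abundant of them, at 125, 51.4 and 109 CPM against 1710.2, 289 and 976 CPM (log2 -3.38 ± 0.51, adjusted p = 6.1e-04). In all 3 genes the groups did not overlap, and CD4+Foxp3- replicate 2 came closest to the Treg libraries.

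Vipr1, a receptor for vasoactive intestinal peptide, read 6.34, 4.6 and 8.98 CPM in DKO Treg and 161, 36.5 and 166 CPM in DKO CD4+Foxp3- cells (log2 -4.19 ± 0.47, adjusted p = 9.4e-05). Pde3b, a cyclic-nucleotide phosphodiesterase, read 19.9, 20.3 and 27.2 CPM against 266, 170.2 and 222 CPM (log2 -3.29 ± 0.17, adjusted p = 3.0e-07), with the smallest SE of the 30 genes. Klrd1 (CD94, an NK receptor chain whose reads may be shared with related genes) read 0.764, 1.58 and 1.01 CPM against 20.8, 4.29 and 13.2 CPM (log2 -3.49 ± 0.49, adjusted p = 4.2e-04). Among the other genes, Lypd6b (log2 -5.54), the gamma-glutamyltransferase Ggt5 (-5.28), the amyloid precursor App (-4.57), the phospholipid flippase Atp8b4 (-4.49), the terminal transferase Dntt (-4.34), the transporter Slc16a5 (-3.28), Tdrp (-3.22) and Arhgap29 (-3.16) were also lowest in CD4+Foxp3- replicate 2 within their group. Pdzrn3, a PDZ and RING domain gene, was the exception, at 4.79, 32.3 and 4.42 CPM in the 3 CD4+Foxp3- libraries against 2.06, 0.503 and 0.839 CPM in Treg (log2 -3.61 ± 0.78). Without replicate 2 its log2 fold change was -2.04.

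The promoter windows of Foxp3, of Nrp1, whose gap between Treg and CD4+Foxp3- cells differed between the genotypes, and of Pdlim4 are shown because CpG dinucleotides are the sites that TET enzymes act on. Foxp3 has 2 RefSeq starts, of which the first is shown. Each run is the 250 bases before a RefSeq start in GRCm38.p6, written 5′ to 3′ on the gene's strand, with every CG in capitals. This build differs from the mm9 build of the counts.
Foxp3, chrX:7579426-7579675, plus strand: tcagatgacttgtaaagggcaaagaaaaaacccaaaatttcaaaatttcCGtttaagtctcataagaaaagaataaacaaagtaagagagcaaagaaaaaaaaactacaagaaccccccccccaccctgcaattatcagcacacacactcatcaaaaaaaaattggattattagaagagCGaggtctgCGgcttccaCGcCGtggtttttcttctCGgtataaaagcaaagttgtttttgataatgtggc
Nrp1, chr8:128358823-128359072, plus strand: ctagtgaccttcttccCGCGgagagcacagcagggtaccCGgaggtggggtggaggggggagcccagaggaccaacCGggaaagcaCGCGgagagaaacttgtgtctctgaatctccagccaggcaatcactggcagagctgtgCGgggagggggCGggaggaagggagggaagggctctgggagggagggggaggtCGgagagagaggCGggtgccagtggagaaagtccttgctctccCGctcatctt
Pdlim4, chr11:54069018-54069267, minus strand: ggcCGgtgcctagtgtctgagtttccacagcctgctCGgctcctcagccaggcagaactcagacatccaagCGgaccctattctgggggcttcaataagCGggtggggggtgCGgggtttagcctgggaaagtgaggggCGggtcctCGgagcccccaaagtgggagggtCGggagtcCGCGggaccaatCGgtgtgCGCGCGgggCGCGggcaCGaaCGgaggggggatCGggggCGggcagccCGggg
The Foxp3 window shown held 6 CG dinucleotides, and 50.4% of 32851 such mouse windows held as many or more. The window before the other start held 7 (46.3%). The Nrp1 window held 11 (35.6% of windows held as many or more) and the Pdlim4 window 21 (16.3%). These counts describe the windows and say nothing of their methylation in these cells.

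The Treg lineage list was almost entirely retained in direction, although 22 of its 24 tested genes had a smaller log2 gap than in WT (below). Of the 24 genes 23, Foxp3 of the sort among them, were called higher in DKO Treg cells and none lower, against 7.75% and 3.49% of all genes. Their median log2 fold change was 2.32 against 0.01 over all genes. With the DKO libraries alone edgeR called 21 higher, edgeR with the replicate block 19 and DESeq2 23. Il2ra, the alpha chain of the high-affinity IL-2 receptor, read 364, 239.5 and 449.8 CPM in DKO Treg and 22.3, 12.3 and 25 CPM in DKO CD4+Foxp3- cells (log2 4.15 ± 0.27, adjusted p = 1.3e-06). Ikzf2 (Helios, a zinc-finger factor of thymus-derived Treg cells) read 364, 319.8 and 264 CPM against 36.6, 64.9 and 48.8 CPM (log2 2.65 ± 0.18, adjusted p = 2.6e-06). Gpr83, an orphan receptor typical of Treg cells, read 61.6, 31.2 and 66.9 CPM against 10.7, 7.6 and 8.31 CPM (log2 2.59 ± 0.24, adjusted p = 2.2e-05). The groups of all 3 genes lay far apart.

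Other lineage genes differed less. Ctla4, the inhibitory receptor for CD80 and CD86, read 296, 289.7 and 449.5 CPM in DKO Treg and 44, 148 and 101 CPM in DKO CD4+Foxp3- cells (log2 1.82 ± 0.31, adjusted p = 0.0016). Tnfrsf18 (GITR) read 211, 323 and 187 CPM against 71.8, 123 and 72.7 CPM (log2 1.43 ± 0.21, adjusted p = 5.6e-04). Nrp1, a semaphorin and VEGF co-receptor on thymus-derived Treg cells, read 103, 94.4 and 114 CPM against 32.6, 66.6 and 39.9 CPM (log2 1.16 ± 0.19, adjusted p = 0.0012). In all 3 genes CD4+Foxp3- replicate 2 was the highest of its group and came closest to the Treg range without reaching it. Izumo1r, folate receptor 4, was the member not called, at 575, 744 and 535 CPM against 276, 1012 and 325 CPM (log2 0.20 ± 0.36, adjusted p = 0.76), and CD4+Foxp3- replicate 2 exceeded every Treg library. Without that replicate its log2 fold change was 1.01 and all 24 genes were called.

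**Figure D2:**
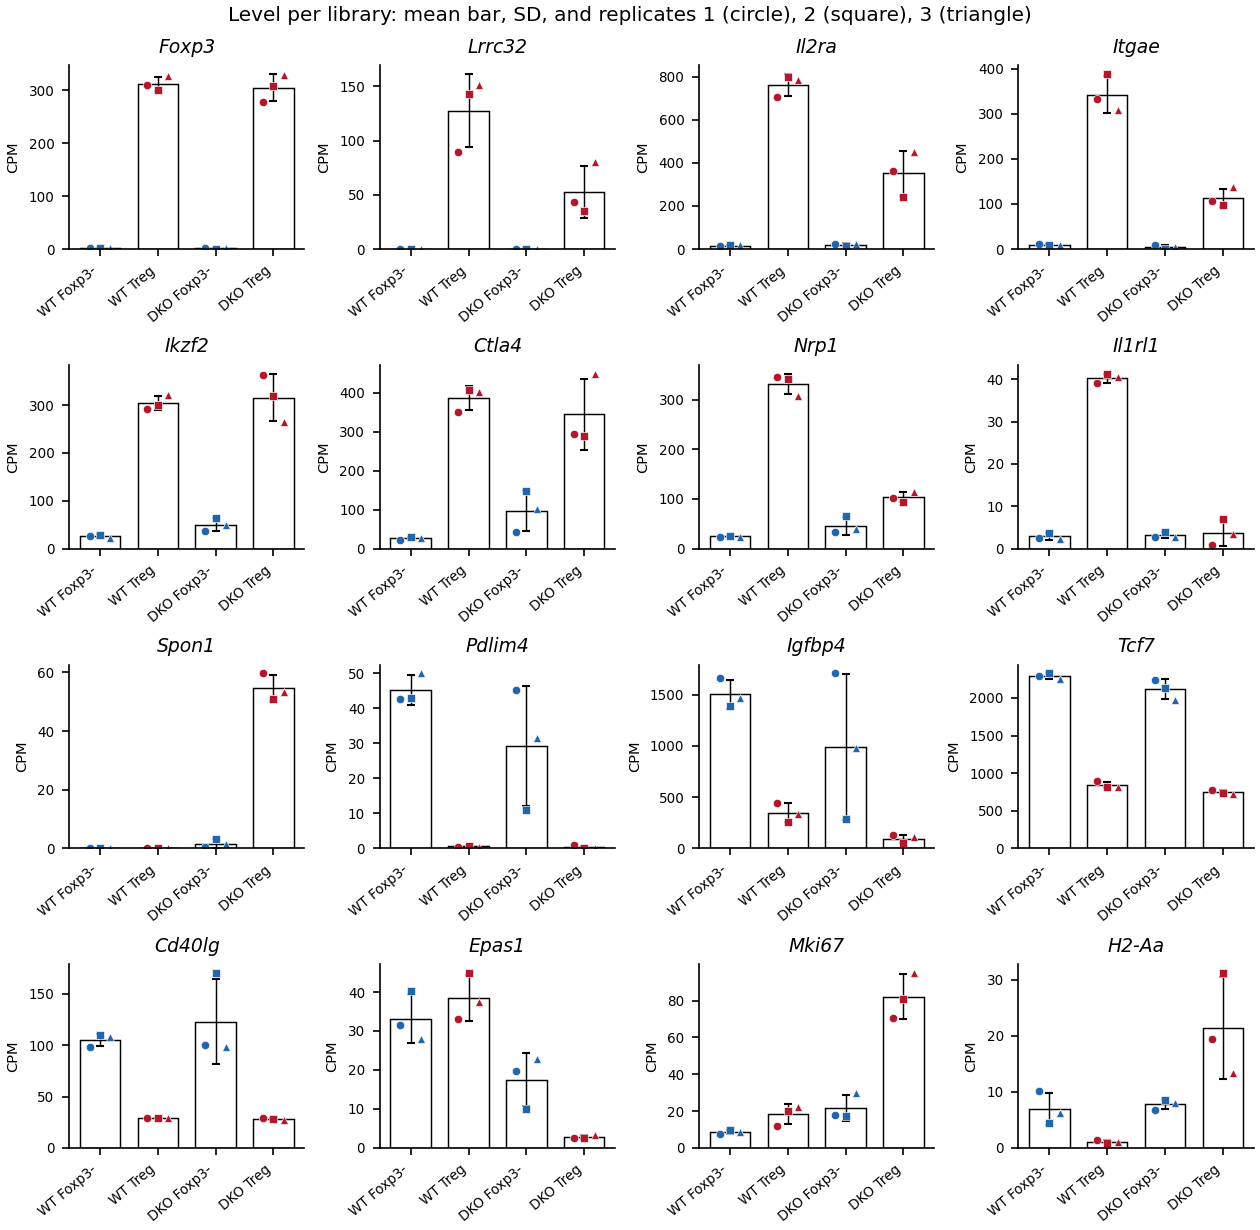
CPM of 16 genes in the 4 mLN groups (WT CD4+Foxp3-, WT Treg, DKO CD4+Foxp3- and DKO Treg), with 1 panel per gene and its own y axis starting at 0. Bars are means, error bars the SD of 3 libraries, and the circle, square and triangle are replicates 1, 2 and 3. Foxp3 and Lrrc32 are near 0 in both CD4+Foxp3- groups, and Nrp1 in DKO CD4+Foxp3- cells reaches 66.6 CPM in replicate 2.

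Of 16 suppressor molecules, 10 were called higher in DKO Treg cells and none lower (median log2 1.4), against 7.75% and 3.49% of all genes. Gzmb, the cytotoxic protease granzyme B, read 8.25, 25.1 and 20.8 CPM in DKO Treg and 1.33, 4.93 and 4.07 CPM in DKO CD4+Foxp3- cells (log2 2.37 ± 0.50, adjusted p = 0.0053). Itgb8, the integrin chain that releases active TGF-beta, read 33.8, 19.3 and 17.7 CPM against 3.02, 6.97 and 5.83 CPM (log2 2.15 ± 0.30, adjusted p = 3.6e-04). Areg, a growth factor of tissue repair, read 8.17, 8.62 and 10.7 CPM against 0.177, 1.9 and 1.59 CPM (log2 2.87 ± 0.53, adjusted p = 0.0023). The groups did not overlap in these genes. Tigit, an inhibitory receptor, read 221, 366 and 232 CPM against 27.9, 187 and 83.3 CPM (log2 1.45 ± 0.46, adjusted p = 0.043), and with the DKO libraries alone its adjusted p was 0.2. The others called were Lrrc32, Ctla4, Lgals1, Nt5e, Pdcd1lg2 and Entpd1, of which Nt5e, Pdcd1lg2 and Entpd1 also lost the call with the DKO libraries alone (adjusted p = 0.2, 0.11 and 0.21). Nt5e was not called with the replicate block either (adjusted p = 0.086).

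Il10, Ebi3 and Lag3 did not pass the test. Il10, the suppressive cytokine, read 3.21, 2.95 and 19.6 CPM in DKO Treg and 0.710, 0.211 and 4.6 CPM in DKO CD4+Foxp3- cells, with replicate 3 the highest of both groups (log2 2.25 ± 0.85, adjusted p = 0.088, and 0.0024 with the replicate block). Ebi3, a subunit of IL-35 and IL-27, read 10.8, 11.6 and 6.04 CPM against 3.73, 15.6 and 1.68 CPM (log2 0.42 ± 0.53, adjusted p = 0.63). Lag3, an MHC class II-binding receptor, read 961, 391 and 407 CPM against 97.9, 642 and 300.3 CPM (log2 0.76 ± 0.50, adjusted p = 0.34). CD4+Foxp3- replicate 2 overlapped the Treg range in Ebi3 and Lag3, and without it 13 suppressor genes were called higher and 1 lower. With the DKO libraries alone 6 were called higher by edgeR and 7 by DESeq2.

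Among 18 genes of effector and ST2+ Treg cells, 6 were called higher and 1 lower (median log2 0.83), against 7.75% and 3.49% of all genes. Without CD4+Foxp3- replicate 2 the counts were 10 and 1. Batf, an AP-1 factor of effector T cells, read 158, 123 and 125 CPM in DKO Treg and 50.9, 87.5 and 54.6 CPM in DKO CD4+Foxp3- cells (log2 1.07 ± 0.17, adjusted p = 9.4e-04). Klrg1, a receptor of terminally differentiated cells, read 2.44, 7.83 and 2.43 CPM against 0.621, 1.2 and 0.619 CPM (log2 2.35 ± 0.49, adjusted p = 0.0049). Ahr, the aryl hydrocarbon receptor, read 18.3, 14.1 and 34.3 CPM against 11.5, 7.53 and 10.2 CPM (log2 1.19 ± 0.27, adjusted p = 0.0081). The groups did not overlap, yet Klrg1 and Ahr lost edgeR's call when the DKO libraries were fitted alone (adjusted p = 0.061 and 0.091), though not DESeq2's. Epas1 (HIF-2 alpha, a hypoxia-inducible factor) was the lower gene, at 2.52, 2.52 and 3.27 CPM in Treg and 19.8, 9.99 and 22.8 CPM in CD4+Foxp3- cells (log2 -2.66 ± 0.29, adjusted p = 7.3e-05). Il1rl1, which encodes the IL-33 receptor ST2, read 0.917, 6.97 and 3.36 CPM against 2.84, 4.01 and 2.65 CPM, with overlapping groups (log2 0.24 ± 0.46, adjusted p = 0.78). Gata3, its known regulator, also overlapped, at 59, 72.5 and 67.2 CPM against 48.8, 81.6 and 51.6 CPM (log2 0.12 ± 0.16, adjusted p = 0.63).

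Transcription factors known as Foxp3 partners were called higher in 2 of 28 cases and lower in 4, where 7.75% and 3.49% of all genes were, with a median log2 of -0.04. Without CD4+Foxp3- replicate 2 there were 7 higher and 7 lower, and over all omissions of 1 DKO library there were 1 to 7 higher and 3 to 7 lower. Rel, an NF-kappaB subunit needed for Treg development, read 48.3, 35.9 and 33.5 CPM in DKO Treg and 22.6, 21.3 and 23.6 CPM in DKO CD4+Foxp3- cells (log2 0.80 ± 0.14, adjusted p = 0.0015). Ezh2, the Polycomb methyltransferase, read 56.1, 70.2 and 65.6 CPM against 38.9, 40.4 and 44.1 CPM (log2 0.64 ± 0.10, adjusted p = 6.9e-04). Tcf7 (TCF-1, a factor of naive and memory T cells) read 781, 741 and 725 CPM against 2239.9, 2133 and 1974 CPM (log2 -1.50 ± 0.07, adjusted p = 2.6e-07). Its replicates agreed closely, and CD4+Foxp3- replicate 2 did not stand apart. Lef1, a partner of TCF-1 in naive cells, read 104, 118 and 139 CPM against 712, 236 and 679 CPM (log2 -2.17 ± 0.30, adjusted p = 3.5e-04), and Satb1, a chromatin organizer, 243, 294 and 345 CPM against 831, 450.1 and 794 CPM (log2 -1.23 ± 0.19, adjusted p = 6.9e-04). Foxp1 was called with overlapping groups (log2 -0.78 ± 0.25, adjusted p = 0.048, and 0.19 with the DKO libraries alone).

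In the Ikaros family of zinc-finger factors, Ikzf2 and Ikzf4 were called higher and Ikzf1 lower, out of 5 genes, against 7.75% and 3.49% of all genes. Ikzf4 (Eos, a Foxp3 corepressor partner) read 27.6, 27.8 and 25.1 CPM in DKO Treg and 6.03, 2.89 and 6.28 CPM in DKO CD4+Foxp3- cells (log2 2.42 ± 0.21, adjusted p = 1.8e-05). Ikzf1 (Ikaros) read 471, 484 and 532 CPM against 1148, 863 and 1086 CPM (log2 -1.06 ± 0.10, adjusted p = 2.4e-05). On a per-length scale, TPM (reads scaled by gene length and library total), the DKO Treg mean was 180.3 ± 10.6 for Ikzf1, 69.2 ± 12.8 for Ikzf2 and 15.4 ± 1.09 for Ikzf4, so Ikzf1 remained the most abundant of the 3 in Treg cells.

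Genes of naive and resting T cells were lower in DKO Treg cells in 14 of 20 cases and higher in none (median log2 -1.23), against 3.49% and 7.75% of all genes. Il7r, the receptor for the survival cytokine IL-7, read 94.8, 198 and 90.1 CPM in DKO Treg and 515, 779 and 407 CPM in DKO CD4+Foxp3- cells (log2 -2.15 ± 0.28, adjusted p = 2.6e-04). Ccr7, the lymph node homing receptor, read 212, 122 and 239.6 CPM against 643, 322 and 479.6 CPM (log2 -1.33 ± 0.25, adjusted p = 0.0023). Klf2, which controls T cell egress, read 115, 138 and 186 CPM against 379.7, 384 and 414 CPM (log2 -1.42 ± 0.14, adjusted p = 4.5e-05). In these genes every Treg library lay below every CD4+Foxp3- library. S1pr1, the sphingosine phosphate receptor of egress, was also lower (log2 -1.23 ± 0.20). Without CD4+Foxp3- replicate 2, 18 of the 20 were called lower, and with the DKO libraries alone 10 were by edgeR and 12 by DESeq2.

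Genes that define CD4 T cells in general stayed high in both groups, and 4 of 12 were called lower in Treg cells, against 3.49% of all genes. Cd4 itself read 1103, 981 and 995 CPM in DKO Treg and 1422, 2320.0 and 1452 CPM in DKO CD4+Foxp3- cells (log2 -0.75 ± 0.15, adjusted p = 0.0041), and without CD4+Foxp3- replicate 2 the log2 of -0.52 was below the 1.5-fold minimum. The TCR signaling genes Cd247 (log2 -0.95 ± 0.16) and Lat (-0.75 ± 0.17) were among the others, and with the DKO libraries alone edgeR still called Cd247, edgeR with the replicate block Cd247 and Lat, and DESeq2 all 4. The 12 genes summed to 6144 to 7001 CPM in DKO Treg and 7393 to 8893 CPM in DKO CD4+Foxp3- libraries.

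Checkpoint and co-stimulatory genes were called higher in 6 of 17 cases and lower in none (median log2 1.07), against 7.75% and 3.49% of all genes. Leaving out CD4+Foxp3- replicate 2 gave 10 higher and 2 lower (Cd226 and Cd96), where 11.2% and 6.32% of all genes were. Havcr2 (TIM-3) read 10.01, 10.3 and 33.9 CPM in DKO Treg and 1.33, 0.141 and 1.86 CPM in DKO CD4+Foxp3- cells (log2 4.06 ± 0.67, adjusted p = 0.0011). Pdcd1 (PD-1) read 295, 256 and 302 CPM against 67.2, 205 and 131 CPM, and CD4+Foxp3- replicate 2 came closest to the Treg libraries (log2 1.08 ± 0.28, adjusted p = 0.016). Cd244, a SLAM-family receptor, rested on 65 reads in DKO Treg and 1 read in DKO CD4+Foxp3- cells, a ratio of 67.4 (95% counting interval 11.7 to 2702). With the DKO libraries alone edgeR called 2 checkpoint genes, Pdcd1 and Cd244 not among them (adjusted p = 0.12 and 0.07), and DESeq2 called 5. Of 18 TNF receptors, 5 were higher, namely Tnfrsf8, Tnfrsf9, Tnfrsf1b, Tnfrsf4 and Tnfrsf18, and none was lower, while Tnfrsf1a was called lower without CD4+Foxp3- replicate 2. Tnfrsf4 (OX40) read 339, 489 and 306 CPM against 48, 170.2 and 98 CPM (log2 1.84 ± 0.32, adjusted p = 0.0016).

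**Figure D3:**
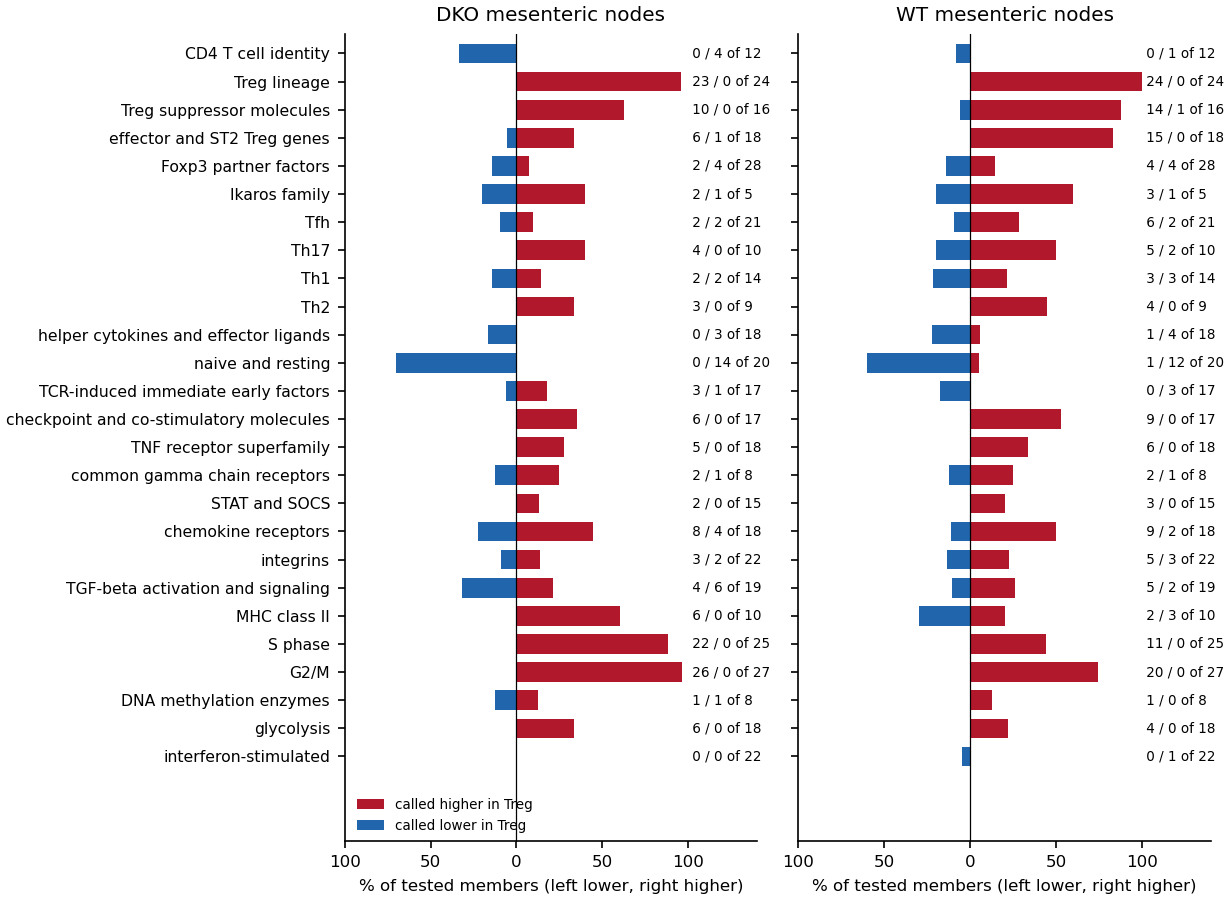
Share of the tested genes of each list called higher (to the right) or lower (to the left) in Treg than in CD4+Foxp3- cells, in percent, for DKO and WT mLN. Treg lineage (23 of 24) and G2/M genes (26 of 27) extend furthest to the right in DKO, S phase genes extend further in DKO (22 of 25) than in WT (11 of 25), and naive genes extend to the left.

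Cell cycle genes were higher in DKO Treg cells almost throughout. Of 25 S phase genes 22 were called higher (median log2 1.15) and of 27 G2/M genes 26 (median 1.71), none lower, and in all of them the 3 Treg libraries lay above the 3 CD4+Foxp3- libraries. Over all genes, 7.75% were called higher and 15.1% had the Treg libraries all above. Mki67, which encodes the proliferation antigen Ki-67, read 70.5, 81 and 95.1 CPM in DKO Treg and 17.8, 17.2 and 29.6 CPM in DKO CD4+Foxp3- cells (log2 1.93 ± 0.24, adjusted p = 1.6e-04). Top2a, the mitotic topoisomerase, read 168, 220.3 and 196 CPM against 59.3, 78.7 and 71.7 CPM (log2 1.48 ± 0.15, adjusted p = 5.1e-05). E2f1, a driver of S phase entry, read 15.6, 15.9 and 15.9 CPM against 5.59, 5.28 and 5.39 CPM (log2 1.54 ± 0.14, adjusted p = 1.8e-05). The E2f1 values hardly varied within a group. The counts held with the DKO libraries alone (19 and 25) and without CD4+Foxp3- replicate 2 (19 and 26).

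Among 8 enzymes that write, read or remove DNA methylation, Uhrf1 was higher and Tet3 lower, against 7.75% and 3.49% of all genes. The lower calls numbered 2 without CD4+Foxp3- replicate 2, where Tet1 joined Tet3 (log2 -1.93, adjusted p = 6.1e-06), and none without CD4+Foxp3- replicate 1 or 3 or Treg replicate 2, and with the DKO libraries alone the adjusted p of Tet3 was 0.12. Uhrf1, which guides maintenance methylation at replication forks, read 85.7, 108 and 109 CPM in DKO Treg and 32, 25.7 and 35.4 CPM in DKO CD4+Foxp3- cells (log2 1.70 ± 0.14, adjusted p = 1.0e-05). Dnmt1, the maintenance methyltransferase, read 120.4, 146 and 143 CPM against 127, 101 and 123 CPM and was not called (log2 0.22 ± 0.10, adjusted p = 0.15). Tet1, the remaining TET gene, read 3.82, 3.81 and 6.71 CPM against 16.7, 2.67 and 18.6 CPM (log2 -1.4 ± 0.49, adjusted p = 0.066), with CD4+Foxp3- replicate 2 below every Treg library. Of 18 glycolysis genes 6 were called higher and none lower (median log2 0.44), among them Slc16a3, the lactate exporter, at 20.9, 53.5 and 42.7 CPM against 2.31, 11.5 and 16.7 CPM (log2 1.94 ± 0.47, adjusted p = 0.012) and Hk2, hexokinase 2 (log2 1.4 ± 0.27, adjusted p = 0.0033). For the DKO libraries alone edgeR called 2 glycolysis genes, without Slc16a3 (adjusted p = 0.11), and DESeq2 called 6. Without Treg replicate 2 edgeR called 3 in the fit of the 4 groups. None of 22 interferon-stimulated genes was called by edgeR or DESeq2 in the fit of the 4 groups (4 at an unadjusted p below 0.05, median log2 -0.02). The replicate block called Mx1 and Oas1a higher, whereas 7 others were called lower without CD4+Foxp3- replicate 2.

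Receptors that place and sustain T cells were called in both directions. Of 18 chemokine receptors 8 were higher and 4 lower (median log2 0.90). Ccr6, the CCL20 receptor, read 69.96, 18.5 and 22.4 CPM in DKO Treg and 21, 5.63 and 9.28 CPM in DKO CD4+Foxp3- cells with overlapping groups (log2 1.64 ± 0.48, adjusted p = 0.033, and 0.053 without CD4+Foxp3- replicate 2). Cx3cr1, the fractalkine receptor, read 3.06, 38.2 and 36.9 CPM against 0.710, 4.79 and 2.65 CPM (log2 3.23 ± 0.77, adjusted p = 0.011), and the lowest Treg library lay within the other group. Ccr10, at the lower end, rested on 3 reads in Treg and 23 in CD4+Foxp3- cells, a ratio of 7.40 in favor of CD4+Foxp3- cells (95% counting interval 2.23 to 38.5), and its adjusted p was 0.065 with the replicate block. With the DKO libraries alone edgeR called 4 chemokine receptors higher and 3 lower, without Ccr6, Cx3cr1 and Ccr10, and DESeq2 called 8 higher and 3 lower. Of 22 integrins 3 were higher (Itgae, Itgb8 and Itgav) and 2 lower, against 7.75% higher and 3.49% lower over all genes, and 6 were higher without CD4+Foxp3- replicate 2, where 11.2% of all genes were. Itga6, a laminin receptor chain, read 68.3, 66.8 and 87.9 CPM against 165, 118 and 192 CPM (log2 -1.09 ± 0.15, adjusted p = 3.2e-04), and Itgb3 read 48.7, 54.8 and 45.4 CPM against 164, 47.6 and 106 CPM with an overlap (log2 -1.09 ± 0.30, adjusted p = 0.021, and 0.056 with the replicate block).

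In the TGF-beta list 4 of 19 genes were higher and 6 lower, against 7.75% and 3.49% of all genes. With 1 library left out 2 (Treg replicate 1) to 7 (Treg replicate 3) were lower, with 3 for Treg replicate 2 or CD4+Foxp3- replicate 3. From the DKO libraries alone edgeR called 2 lower and DESeq2 4. Those that activate or receive TGF-beta included Lrrc32, Itgb8 and Tgfbr1, the type I receptor, which read 91.7, 62 and 79.8 CPM in DKO Treg and 39, 48.1 and 43.1 CPM in DKO CD4+Foxp3- cells (log2 0.84 ± 0.14, adjusted p = 0.0013). The co-receptor betaglycan, Tgfbr3, read 12.8, 4.1 and 18.5 CPM against 116, 53.3 and 124 CPM (log2 -3.06 ± 0.40, adjusted p = 2.4e-04). Tgfbr1 was thus higher and Tgfbr3 lower in every Treg library. Of 8 receptors of the common gamma chain cytokines Il2ra and Il2rb were higher and Il7r lower, and of 15 STAT and SOCS genes Socs2 and Cish were higher, against 7.75% of all genes. Socs2, induced by STAT5, read 13.6, 7.55 and 18.2 CPM against 1.95, 2.74 and 1.33 CPM (log2 2.67 ± 0.33, adjusted p = 1.6e-04).

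Helper T cell genes showed no common direction. Of 18 helper cytokines and effector ligands 3 were called lower in DKO Treg cells and none higher (median log2 -0.69). Leaving out CD4+Foxp3- replicate 1 gave 5 lower and replicate 2 gave 4 lower and 2 higher, and without CD4+Foxp3- replicate 3 or Treg replicate 2 there was 1 lower. Cd40lg (CD40 ligand, the helper signal to B cells) read 29, 28.3 and 27.3 CPM in DKO Treg and 100.4, 171 and 98.1 CPM in DKO CD4+Foxp3- cells (log2 -2.13 ± 0.17, adjusted p = 1.0e-05). Il21, the Tfh cytokine, read 34.8, 9.27 and 32.2 CPM against 18.8, 139 and 101 CPM with overlapping groups (log2 -1.77 ± 0.57, adjusted p = 0.048). It was not called with the replicate block (0.17), with the DKO libraries alone (0.19) or without CD4+Foxp3- replicate 2 (log2 -1.27, adjusted p = 0.086). Il2, which Foxp3 is known to repress, had 1 read in DKO Treg and 22 in DKO CD4+Foxp3- cells, a ratio of 21.2 (95% counting interval 3.43 to 876). With the DKO libraries alone Cd40lg was the only 1 of the 3 called. Of 21 Tfh genes Pdcd1 and Batf were higher and Il21 and Il6ra lower, against 7.75% and 3.49% of all genes, but 8 were higher and 1 lower without CD4+Foxp3- replicate 2, and 2 higher and 5 lower without replicate 1. Cxcr5, the follicle homing receptor, read 218, 151 and 235 CPM against 60.1, 193 and 108 CPM (log2 0.74 ± 0.30, adjusted p = 0.11), and Bcl6, the Tfh master factor, 106, 66.8 and 83.7 CPM against 37.3, 67.8 and 79.2 CPM (log2 0.47 ± 0.21, adjusted p = 0.15). Both had overlapping groups.

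Of 10 Th17 genes 4 were called higher in DKO Treg cells, against 7.75% of all genes. With the DKO libraries alone edgeR called none, edgeR with the replicate block 2 and DESeq2 4. Il23r, the IL-23 receptor, read 28.9, 9.7 and 18.5 CPM in DKO Treg and 6.65, 0.915 and 1.77 CPM in DKO CD4+Foxp3- cells (log2 2.63 ± 0.55, adjusted p = 0.0051). Every Treg library lay above every CD4+Foxp3- library, and Treg replicate 1 was the highest. Il17a stayed under 1.1 CPM in all 6 libraries. Of 14 Th1 genes Hopx and Il12rb1 were higher and Eomes and Tbx21 lower, against 7.75% and 3.49% of all genes, and with the replicate block 4 were higher and 2 lower. Eomes and Tbx21 were not called by edgeR with the DKO libraries alone, where DESeq2 called Eomes. Nor were they called without CD4+Foxp3- replicate 1 or 3 or Treg replicate 2. Of 9 Th2 genes the chemokine receptors Ccr3, Ccr4 and Ccr8 were higher. Ccr4 was not called by edgeR with the DKO libraries alone (adjusted p = 0.17), where DESeq2 called all 3. Of 17 immediate early genes of TCR signaling, the orphan nuclear receptors Nr4a1, Nr4a2 and Nr4a3 were higher and Ier2 lower, against 7.75% and 3.49% of all genes. With the DKO libraries alone edgeR called Ier2 and DESeq2 all 4 of them. The lower calls of this list numbered 4 without CD4+Foxp3- replicate 2 and none without CD4+Foxp3- replicate 1 or 3 or Treg replicate 3.

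MHC class II genes, typical of antigen-presenting cells, were called higher in 6 of 10 cases and lower in none (median log2 1.38), against 7.75% and 3.49% of all genes. Without CD4+Foxp3- replicate 2 there were 5 higher and 1 lower, H2-DMa. Cd74, the invariant chain, read 187, 317 and 97.7 CPM in DKO Treg and 32.7, 63.8 and 30.3 CPM in DKO CD4+Foxp3- cells (log2 2.24 ± 0.37, adjusted p = 0.0011). H2-Aa, a class II alpha chain, read 19.4, 31.2 and 13.4 CPM against 6.83, 8.58 and 8.04 CPM (log2 1.45 ± 0.32, adjusted p = 0.0071). H2-Eb1, a beta chain, read 14.4, 22.9 and 9.9 CPM against 4.44, 6.47 and 4.95 CPM (log2 1.57 ± 0.29, adjusted p = 0.0025). The highest Treg library was replicate 2 for all 3 genes. Ciita, the class II transactivator, read 1.15, 1.72 and 1.76 CPM against 0.621, 0.422 and 0.354 CPM (log2 1.71 ± 0.54, adjusted p = 0.044), and it lost the call with the replicate block (0.085) and with the DKO libraries alone (0.075), where edgeR called 3 class II genes and DESeq2 5. The B cell marker sum was also higher in Treg libraries (42.5 to 107 against 10.4 to 22.4 CPM), but it includes Blk, the only B cell marker called. The myeloid sum was partly higher (98.6 to 131 against 57.9 to 116 CPM), and Ms4a1, Pax5 and Ebf1 stood at the levels given above. The part of such cells in the class II difference was not tested beyond these values.

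The same contrast in WT mLN, from other libraries, called 1687 genes (10.1%), 1160 higher (6.91%) and 527 lower (3.14%). Genes called higher in both genotypes numbered 622, or 47.8% of the DKO and 53.6% of the WT calls, and those lower in both 294, or 50.3% and 55.8%. Genes called in opposite directions numbered 5. Another 964 genes were called in DKO and not in WT, of which 12 passed the test of the difference between the genotypes. Of the 766 called in WT and not in DKO, 18 passed it. The test of the difference was the interaction of genotype and cell type in the fit of all 12 mLN libraries, which called 44 genes (0.262%), 18 with a more positive Treg gap in DKO (0.107%) and 26 with a more negative one (0.155%).

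The interaction count moved with the libraries and terms of the fit. It was 102 when replicate number was added as a block, added because libraries of the same number deviated together in mLN, and 38 of the 44 genes were among them. Leaving out DKO CD4+Foxp3- replicate 2 gave 366, all 44 included, and leaving out replicate 1 of that group gave 212. Without any 1 of the 6 WT libraries it was 9 (WT Treg replicate 2) to 21 (WT Treg replicate 1), and without any of the other DKO libraries 46 to 65. Among the 44 genes, 29 separated Treg from CD4+Foxp3- cells in WT with a gap that was smaller, absent or reversed in DKO, and 17 separated the DKO cells with a gap that was smaller, absent or reversed in WT. The 4 genes counted in both were reversed, H2-Aa, H2-Eb1 and Kcnk5 among them, and 2 genes were in neither.

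Nrp1 was the lineage gene whose gap shrank most clearly. In WT mLN it read 332 ± 20.7 CPM in Treg and 24.5 ± 1.51 CPM in CD4+Foxp3- cells (mean ± SD, n = 3), a log2 of 3.75 ± 0.21, and in DKO the log2 was 1.16 ± 0.19 as above. The interaction was -2.60 ± 0.28 (adjusted p = 0.0059), with a mean of 104 ± 9.87 CPM in DKO Treg and 46.4 ± 17.9 CPM in DKO CD4+Foxp3- cells. The DKO mean was thus the lower one in Treg and the higher one in CD4+Foxp3- cells. Il1rl1 read 40.3 ± 1.06 CPM in WT Treg and 2.88 ± 0.780 CPM in WT CD4+Foxp3- cells (log2 3.78 ± 0.45), against no detectable gap in DKO (interaction -3.54 ± 0.64, adjusted p = 0.04). Socs2 kept a gap in both genotypes, but a smaller one in DKO (interaction -2.71 ± 0.48, adjusted p = 0.035). Hopx, a homeodomain cofactor of effector T cells, read 132 ± 3.88 CPM in WT Treg and 20.1 ± 1.28 CPM in WT CD4+Foxp3- cells (log2 2.71 ± 0.15), and the interaction was -1.61 ± 0.21 (adjusted p = 0.0073).

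Of the 24 lineage genes, 22 had a smaller log2 gap in DKO, and of them Nrp1 and Socs2 passed the interaction test. Foxp3 and Itgae did not pass it (interaction 0.06 ± 0.54 and -0.47 ± 0.69, adjusted p = 1 and 0.92), nor did Il2ra (-1.4 ± 0.34, 0.12), Ctla4 (-2.05 ± 0.44, 0.073) or Lrrc32 (-1.94 ± 1.58, 0.74). Lineage means were lower in DKO than WT Treg cells for 18 of the 24 genes, and higher in DKO than WT CD4+Foxp3- cells for 16. The summed lineage level was 5415 to 6213 CPM in DKO Treg and 6615 to 6972 CPM in WT Treg, and it was 1189 to 2511 CPM in DKO CD4+Foxp3- and 929 to 1012 CPM in WT CD4+Foxp3- cells. Neither pair of ranges overlapped. The Nrp1 interaction kept its call in all 16 alternatives, whereas Il1rl1 was called in 7 and Socs2 in 8, and Socs2 was not called with the replicate block.

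**Figure D4:**
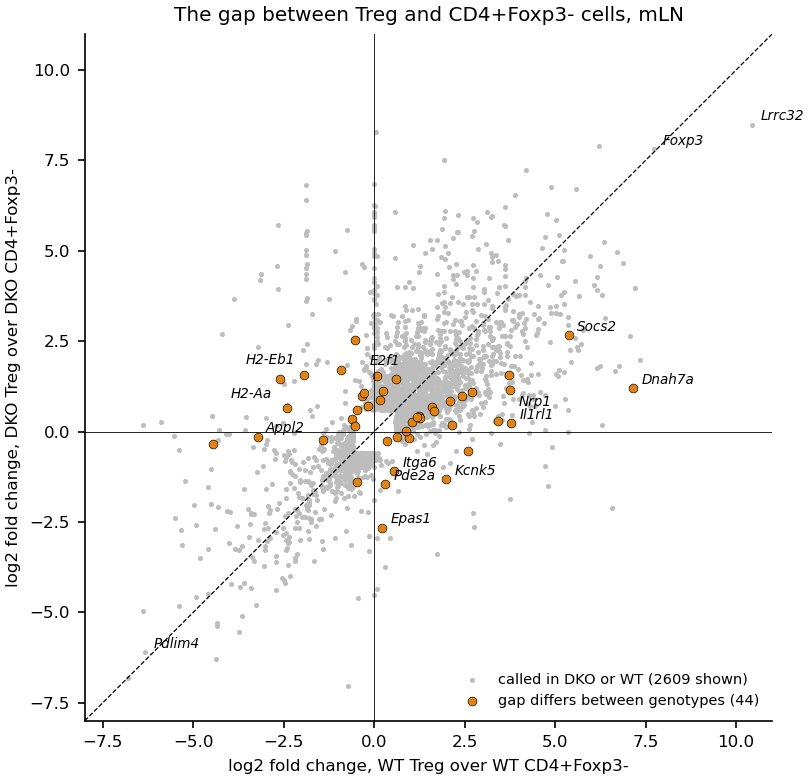
Log2 fold change of Treg over CD4+Foxp3- cells in WT mLN (x axis) against that in DKO mLN (y axis), 1 point a gene, with the 44 genes of the interaction test in orange and genes called in at least 1 genotype in grey. Nrp1 and Il1rl1 lie below the diagonal on the right, and H2-Aa and H2-Eb1 lie above it on the left.

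Some gaps turned or opened in DKO. H2-Aa read 1.13 ± 0.329 CPM in WT Treg and 6.92 ± 2.91 CPM in WT CD4+Foxp3- cells (log2 -2.60 ± 0.40), the reverse of its order in DKO (interaction 4.04 ± 0.51, adjusted p = 0.0073). H2-Eb1 turned likewise, from log2 -1.93 ± 0.34 in WT (interaction 3.50 ± 0.45, adjusted p = 0.0073). Epas1 read 38.5 ± 5.97 CPM in WT Treg and 33.1 ± 6.35 CPM in WT CD4+Foxp3- cells (log2 0.21 ± 0.24), and its lower Treg level appeared in DKO (interaction -2.87 ± 0.37, adjusted p = 0.0073). These 3 genes kept the interaction call in all 16 alternatives. The B cell markers, Blk included, summed to 42.5 to 107 CPM in DKO Treg and 31.7 to 40.7 CPM in WT Treg. In CD4+Foxp3- cells they summed to 10.4 to 22.4 CPM in DKO and 5.79 to 7.09 CPM in WT. The myeloid sums, in the same order, were 98.6 to 131, 64.1 to 79.2, 57.9 to 116 and 53.7 to 57.9 CPM. The part of such cells in the turn of H2-Aa and H2-Eb1 was not tested.

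Pde2a, a phosphodiesterase of cyclic GMP and cyclic AMP, read 33.8, 48.8 and 47.1 CPM in DKO Treg and 132, 95 and 127 CPM in DKO CD4+Foxp3- cells, against a WT log2 of 0.30 ± 0.14 (interaction -1.75 ± 0.20, adjusted p = 0.006). Itga6, lower in DKO Treg cells, had a WT log2 of 0.56 ± 0.15, which is under the 1.5-fold minimum and was not called (interaction -1.65 ± 0.21, adjusted p = 0.0073). E2f1 had a WT log2 of 0.09 ± 0.14 (interaction 1.45 ± 0.19, adjusted p = 0.0081). Odc1, the first enzyme of polyamine synthesis, read 519, 509.9 and 458 CPM in DKO Treg and 171, 195 and 173 CPM in DKO CD4+Foxp3- cells (log2 1.46 ± 0.08), against 0.60 ± 0.08 in WT (interaction 0.86 ± 0.11, adjusted p = 0.0073). Odc1 thus separated the DKO cells more than the WT cells. Kcnk5, a potassium channel, turned from log2 1.98 ± 0.40 in WT to -1.31 ± 0.40 in DKO (interaction -3.29 ± 0.57, adjusted p = 0.031), but neither its interaction nor its DKO difference (adjusted p = 0.079) was called with the replicate block. The DKO difference of Kcnk5 was not called with the DKO libraries alone either (0.14), nor without CD4+Foxp3- replicate 2 (log2 -0.75, adjusted p = 0.094).

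S phase and G2/M gaps were larger in DKO than WT for every gene of the 2 lists, with WT medians of 0.58 and 1.06. In WT 11 S phase and 20 G2/M genes were called higher. Of these genes Mcm3 and Mcm5, subunits of the replicative helicase, passed the interaction test (interaction 0.72 ± 0.11 and 0.89 ± 0.16, adjusted p = 0.015 and 0.045), and Mcm5 was not called with the replicate block. The call held in 10 of 16 alternatives for Mcm3 and in 6 for Mcm5. No DKO Treg mean of these genes was below the WT Treg mean, and the DKO CD4+Foxp3- means were above WT for 22 S phase and all 27 G2/M genes.

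DKO cells from pooled spleen and pLN gave the contrast again with 2 libraries a group. There 617 of 16357 genes were called (3.77%), 353 higher (2.16%) and 264 lower (1.61%). The study took Treg and CD4+Foxp3- cells there from the same pair of DKO littermates, and with replicate number as a block 348 genes were called, 202 higher and 146 lower. Among 14198 genes tested in both tissues, 217 were higher in both, 18% of the mLN and 64.6% of the spleen and pLN calls, and 120 were lower in both, 22.5% and 48.2%. Genes with opposite calls numbered 2. Called in DKO mLN, WT mLN and DKO spleen and pLN were 177 higher and 86 lower genes. The study describes the DKO littermates used there as unequal in disease severity. Leaving out 1 library at a time moved the count of calls from 185, without DKO Treg replicate 1, to 1586, without DKO CD4+Foxp3- replicate 1.

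Foxp3, which again checks the sort, read 419 and 235 CPM in spleen and pLN DKO Treg replicates 1 and 2 and 0.251 and 0.741 CPM in DKO CD4+Foxp3- cells. Several of the large mLN separations recurred. Lrrc32 read 65.7 and 60.01 CPM in Treg with no read counted in either CD4+Foxp3- library. Itgae read 312 and 201 CPM against 4.46 and 13.9 CPM (log2 4.82 ± 0.41, adjusted p = 8.4e-05), and Pdlim4 0.286 and 0.137 CPM against 12.6 and 30.9 CPM (log2 -6.59 ± 0.57, adjusted p = 8.7e-05). Cd40lg read 21.4 and 19.7 CPM against 85.9 and 94.6 CPM (log2 -2.13 ± 0.15, adjusted p = 1.5e-05), and Tgfbr3 8.19 and 8.06 CPM against 42.3 and 73.5 CPM (log2 -2.83 ± 0.24, adjusted p = 8.4e-05). In each of these genes the groups of both tissues lay apart in the same order.

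Of the 24 lineage genes 17, with Foxp3, were called higher in spleen and pLN and none lower, 13 with the replicate block. Ctla4 was not called there, at 231 and 234 CPM in Treg and 344 and 50.4 CPM in CD4+Foxp3- cells, where replicate 1 exceeded both Treg libraries (log2 0.24 ± 0.55, adjusted p = 0.91). Ikzf2 had 178 and 45.4 CPM in the CD4+Foxp3- libraries and 324 and 304 CPM in Treg (log2 1.49 ± 0.43, adjusted p = 0.089). Il21 was lower in Treg cells, at 9.22 and 2.39 CPM against 234 and 52.4 CPM (log2 -4.60 ± 0.66, adjusted p = 0.0018). CD4+Foxp3- replicate 1 was the higher library for all 3 genes.

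None of the S phase and G2/M genes was called by edgeR or DESeq2 in spleen and pLN (0 and 2 at an unadjusted p below 0.05), with medians of log2 0.13 for S phase and 0.39 for G2/M. Of the 10 class II genes Cd74 and H2-Oa were called higher in spleen and pLN and none lower, against shares over all genes of 2.16% and 1.61%, with a list median of log2 -0.01. H2-Aa read 36.1 and 26.8 CPM in Treg and 33.1 and 40.3 CPM in CD4+Foxp3- cells (log2 -0.22 ± 0.20, adjusted p = 0.72), whereas Cd74 was higher there too (379 and 247 against 65 and 74.6 CPM, log2 2.16 ± 0.22, adjusted p = 2.2e-04). The tissues were fitted separately, and the difference between them was not tested.

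**Figure D5:**
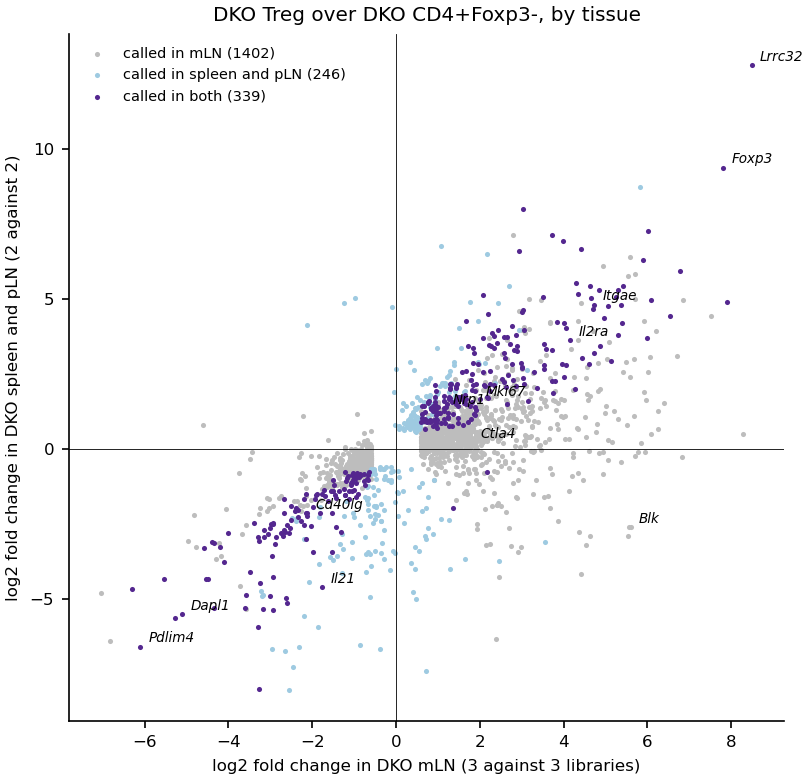
Log2 fold change of DKO Treg over DKO CD4+Foxp3- cells in mLN (x axis) against that in spleen and pLN (y axis), 1 point a gene, colored by the tissue in which the gene was called. Foxp3, Itgae and Il2ra lie at the upper right and Pdlim4 at the lower left.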

How the data were processed

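Reads of sorted cells (TruSeq stranded mRNA, single-end) were mapped by the authors to mm9 with TopHat2 (2.1.1, 1 alignment a read) and counted per RefSeq gene with featureCounts (Subread 1.4.3-p1, reverse-stranded). The deposited tables hold these raw counts, and the deposited TPM table of mLN, whose calculation is not given in the sources used here, served for levels per length. Replicates are biological per the study. Members and gene lists were chosen with earlier results of these data known. Genes with at least 1 read over the libraries of a tissue were tested in 1 fit of the 4 groups of each tissue with edgeR 4.0.16 (TMM, glmQLFit and glmQLFTest, R 4.3.3) at an adjusted p of 0.05 and a fold of 1.5, the thresholds that the authors applied with DESeq2. The biological coefficient of variation was 17.7% in mLN and 21.6% in spleen and pLN, each over both genotypes. Replicates varied more in DKO than in WT. The chi-square per degree of freedom of replicate pairs, against counting noise, was 14.9 to 68.6 in DKO mLN and 3.69 to 8.46 in WT mLN. In spleen and pLN it was 56.3 and 87.8 in DKO and 4.37 and 5.92 in WT. The fit of the 4 groups gives each gene 1 spread for both genotypes, so its DKO SE and p-values draw on the WT spread too. Named genes are Foxp3, Tet2 and Tet3, the 15 called genes with the largest fold change in each direction among those of at least 10 CPM and no overlap, members of the lists that were called or whose call differed between genotypes or tissues, and up to 8 interaction genes in each direction. Odc1 and Plac8, and list members named without a call, were chosen after their values were seen. A few list members count in their lists but are not reported here by name. In mLN, libraries with the same replicate number deviated together (r = 0.110, 0.372 and 0.390 in DKO, 0.171, 0.174 and 0.183 in WT, over 11175 genes), although DKO Treg replicate 3 also did so with CD4+Foxp3- replicate 1 (0.160) and the other unmatched pairs were below 0, so a fit with replicate number as a block was added as an alternative. Deviations were taken from group means, so a matched r above 0 pulls the unmatched ones below 0. The script was tested on simulated data. No library was identical to another, and intervals cover counting error only. Gene positions are from GENCODE M1 (mm9) and promoter sequences from RefSeq (GRCm38.p6), in which all 3 genes shown were found.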

Additional observations from a re-analysis of the deposited data

Results flagged for a closer look

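The difference between Treg and CD4+Foxp3- cells depended on genotype in 44 genes by the interaction test. The values below are the DKO minus the WT log2 gap, so that a negative value means a gap shifted toward CD4+Foxp3- cells in DKO, whichever of the groups moved.

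Among the genes described above, the gap was more negative in DKO for Il1rl1 (-3.54), Kcnk5 (-3.29), Epas1 (-2.87), Socs2 (-2.71), Nrp1 (-2.60), Pde2a (-1.75), Itga6 (-1.65), Hopx (-1.61) and Tgfbr1 (-1.26). It was more positive for H2-Aa (4.04), H2-Eb1 (3.50), E2f1 (1.45), Mcm5 (0.89), Odc1 (0.86) and Mcm3 (0.72).

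Other genes with a large interaction were no members of the lists. Dnah7a, an axonemal dynein heavy chain, had a WT log2 of 7.15 ± 0.75 and read 2.37, 2.52 and 2.77 CPM in DKO Treg and 2.75, 0.0704 and 0.619 CPM in DKO CD4+Foxp3- cells (interaction -5.94, adjusted p = 0.031). Its DKO groups overlapped, and its interaction was not called with the replicate block. Rnase4, a secreted ribonuclease, read 14.1, 14.2 and 16.1 CPM against 6.39, 22.1 and 7.07 CPM in DKO, from a WT log2 of 3.43 ± 0.38 (interaction -3.13, adjusted p = 0.025). Appl2, an endosomal adaptor, was lower in WT Treg cells (log2 -3.22 ± 0.36) and read 14.7, 12.6 and 6.04 CPM against 13.6, 9.22 and 14.1 CPM in DKO (interaction 3.08, adjusted p = 0.015). Ssx2ip, a centrosomal protein, separated the DKO cells without overlap (17.8, 15.7 and 13.1 against 6.83, 7.18 and 8.13 CPM) and had a WT log2 of -0.29 ± 0.16 (interaction 1.36, adjusted p = 0.027). Plac8 read 9.17, 10.6 and 10.4 CPM against 9.4, 9.01 and 8.13 CPM in DKO, with a WT log2 of 2.14 ± 0.19 (interaction -1.96, adjusted p = 0.0096), and its interaction was called in all 16 alternatives. The interaction of Dnah7a was called in 7 of them, that of Ssx2ip in 8, that of Rnase4 in 10 and that of Appl2 in 12.

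Cd244 and Ciita were higher in every DKO Treg library of mLN and lower in both of spleen and pLN, a difference between tissues that was not tested. The log2 fold change in spleen and pLN was -2.91 for Cd244 and -0.69 for Ciita, and neither was called there.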

How the results depend on the processing

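With only the DKO libraries in the fit, the mLN count of 1885 became 906 (590 higher, 316 lower), 949 with replicate number as a block in that fit and 1502 with DESeq2 on the same libraries, and with no fold change minimum it was 2956, of which 55.9% were higher against 69.0%. Leaving out 1 library gave 1520 to 2934. The WT count of 1687 became 2544 with the WT libraries alone and 1149 to 1263 with 1 library left out. The interaction count of 44 became 102 with the replicate block, 270 with DESeq2's Wald test, and 9 to 366 with 1 library left out. In spleen and pLN the count of 617 became 342 with filterByExpr, 348 with replicate number as a block (2 pairs a genotype, r = 0.336 for the same number and -0.336 across numbers in DKO), which changed no call of a gene whose values there are given, 190 with the DKO libraries alone and 185 to 1586 with 1 library left out. Where a group then held 1 library, it was assumed to vary like the others. DESeq2 size factors, a robust prior, DESeq2 with the 4 groups and the replicate block kept the mLN count within 1774 to 1953. With 1 DKO library left out, 6 (CD4+Foxp3- replicate 2) to 17 (CD4+Foxp3- replicate 3) of the 116 called genes that are named lost the call, Ciita in all 6 cases and Ccr4, Entpd1, Tbx21 and Il21 in 5 of them. With the DKO libraries alone in edgeR, 34 of the genes named lost the call, at adjusted p-values of 0.053 (Gm4858 and Nr4a3) to 0.21 (Entpd1), and with the replicate block 6 did (Ccr10, Itgb3, Kcnk5, Ciita, Il21 and Nt5e), while Il10, Jchain (adjusted p = 0.04), Cd79b, Mx1 and Oas1a gained it. The block changed no other call of a named gene in mLN, and no named gene that was called turned its direction under any alternative run. Among those not called, Jchain turned from log2 -0.33 to 2.27 without DKO CD4+Foxp3- replicate 2, and others turned as well (Il17a, Il1rl1, Appl2, Rnase4, Ebi3, Gata3, Tet2, Cd8a, Cd96, Dcn, Derl3 and Izumo1r). The cause of these moves was not tested. Genes under about 1 CPM rest on few reads at these depths.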
